A study of Mus musculus with 3 samples.

Results

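Aminoacyl-tRNA synthetases are the enzymes that join each amino acid to its transfer RNA. They were followed in RNA sequencing of mouse pro-B cells, the early B-lineage precursors of bone marrow, with and without the transcription factor Pax5. The members were chosen by gene symbol alone: the letter of an amino acid, Ep for the enzyme of glutamate and proline, or Fars for the subunits of the phenylalanine enzyme, with no suffix or the suffix 1, a or b for the cytosolic enzymes and 2 for the mitochondrial ones. This gave 37 genes of 27179 in the count table, 20 cytosolic and 17 mitochondrial, and all 37 passed the filter on low counts. The Pax5-/- group held 2 samples, both labelled male, and the wild-type group held 1 sample, labelled female, all of strain C57BL/6; no age was stated. B220+ bone marrow cells of both genotypes had been expanded on OP9, a stromal feeder line, in MEM with Glutamax, pyruvate and non-essential amino acids. Depletion of IgM+ cells at day 7 was stated for the Pax5-/- samples only, so genotype, sex and this step cannot be told apart. The labels do not say that the wild type was prepared beside the Pax5-/- samples, nor which exons the Pax5 allele lacks.

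A cell needs a set of synthetases in the cytosol, for the proteins made from nuclear genes, and another in the mitochondria, for the few proteins that the mitochondrial genome encodes. All of these enzymes are encoded in the nucleus, in most cases by separate genes for each compartment. Gars and Kars are exceptions, since each gives both the cytosolic and the mitochondrial enzyme. Several cytosolic synthetases sit together in the multisynthetase complex, held by scaffold proteins. When a transfer RNA is left without its amino acid, the kinase GCN2 raises translation of the transcription factor ATF4, which is known to activate genes of amino acid supply and many cytosolic synthetase genes.

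Library totals were 6487846 and 6697879 counts in Pax5-/- samples 1 and 2 and 6530057 in the wild type. Pax5 itself had 417 and 551 counts in Pax5-/- cells, against 1601 in wild-type cells. Precursor B-cell transcripts were present in all 3 libraries: Vpreb1, a surrogate light chain, had 1242 and 1823 counts in Pax5-/- cells, against 3427 in wild-type cells. Of 13 pro-B marker genes tested, 5 fell, 5 rose and 3 were not called, so they differed in both directions. Among all genes tested, 8.55% fell and 9.53% rose (edgeR, adjusted p under 0.05). None of 6 T-cell or 5 erythroid marker genes had more than 10 counts in any library, and 3 of the erythroid genes, the myeloid Fcgr1 and the stromal Lepr were at 0 throughout. The summed level of 9 myeloid markers was 27.4 and 42.3 CPM (counts scaled to library size with TMM) in Pax5-/- cells, against 62.9 CPM in wild-type cells. Of these, S100a9 had 0 and 0 counts in Pax5-/- cells, against 232 in wild-type cells, where it made up 36.1 of the 62.9 CPM. Lyz2, a lysozyme gene, had 92 and 128 counts in Pax5-/- cells, against 28 in wild-type cells. The lower sum in Pax5-/- cells thus rests largely on S100a9, and the myeloid markers did not differ in 1 direction. The summed level of 9 stromal markers was 24.2 and 9.39 CPM in Pax5-/- cells, against 19.2 CPM in wild-type cells. Of the 5 stromal genes tested, 0 were called, and they differed in both directions with a median log2 fold change of -1.32. The sums therefore do not show that feeder-cell RNA was alike in both genotypes. Across 15 cell cycle genes, 1 fell (Ccna2), 0 rose, and the median log2 fold change was -0.28. This count is near the 8.55% called lower among all genes tested, and nothing is read from it. The part of these differences in the results on synthetases was not tested. In bulk RNA, fewer cells of a type and less RNA per cell cannot be told apart.

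Cytosolic synthetase transcripts were lower in Pax5-/- cells in part, and mitochondrial ones were not called in the main fit. Of the 20 cytosolic genes, 9 fell, 0 rose and 11 were not called (adjusted p under 0.05 in the quasi-likelihood test of edgeR, with the Benjamini-Hochberg method over all 11783 genes). Of the 17 mitochondrial genes, 0 were called in the main edgeR fit, with 4 at an unadjusted p under 0.05 (3 lower and 1 higher), and 0 in DESeq2 and limma-voom. However, 1 of them, Mars2, was called lower with RLE scaling, without a filter, with a filter of 1 CPM in 2 samples and with robust dispersion estimation. In the main fit 18.1% of all genes tested were called, 8.55% lower and 9.53% higher. The median log2 fold change, Pax5-/- over wild type, was -0.57 for the cytosolic and 0.02 for the mitochondrial genes, against 0.01 for all genes tested. The spread behind these tests comes from the 2 Pax5-/- samples alone (1 residual degree of freedom), and the single wild-type sample is assumed to vary like them. With a biological coefficient of variation of 0.4 assumed for every gene, 0 synthetases were called.

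**Figure D1:**
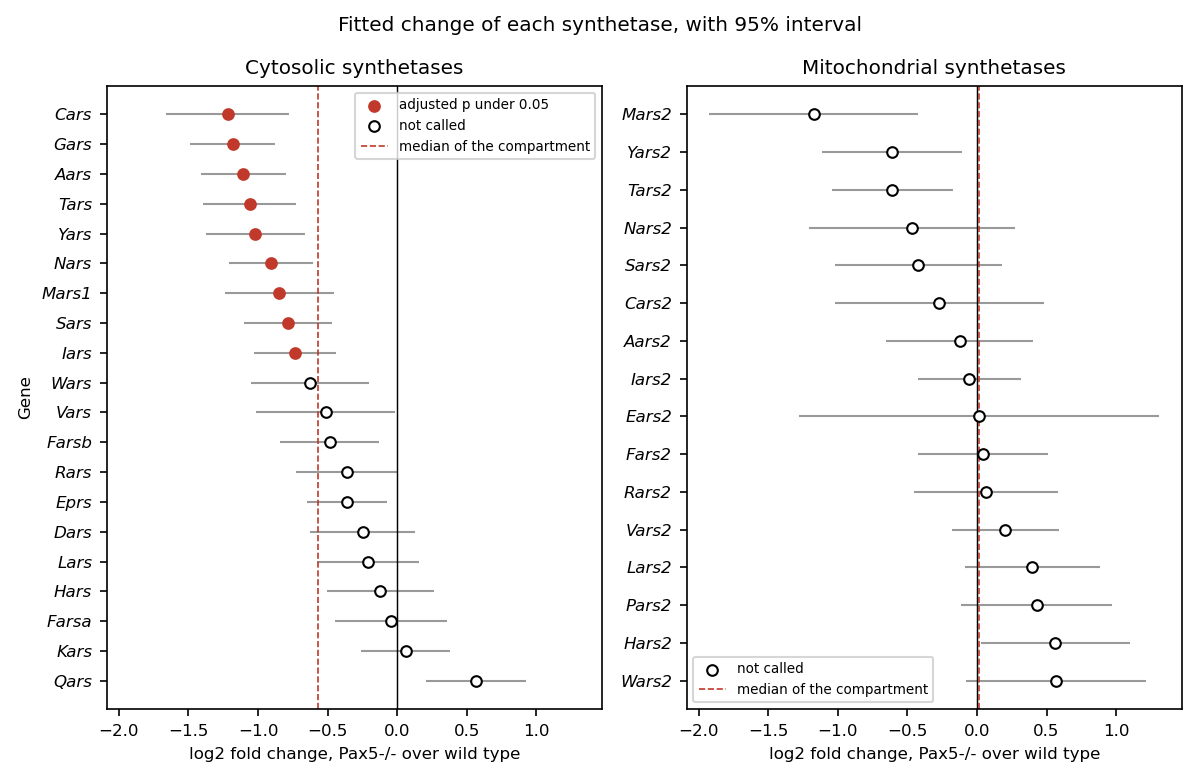
Log2 fold change (Pax5-/- over wild type, x axis) of 20 cytosolic and 16 mitochondrial synthetase genes, with the 95% interval of the edgeR fit as a bar, filled points for adjusted p under 0.05 and a dashed line at the median of the whole compartment. The 9 called genes, from Cars at -1.22 to Iars at -0.73, are all cytosolic, and the mitochondrial genes run from -1.18 to 0.57 around 0.

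The cysteine enzyme gene Cars (Entrez 27267, chr7:143557230-143600090, mm10) showed the largest fall among the synthetases. It had 394 and 360 counts in Pax5-/- cells, against 848 in wild-type cells, or 56.8 ± 5.61 CPM (SD, n = 2) against 132 CPM. The log2 fold change was -1.22 (SE 0.16, adjusted p = 0.0177, edgeR), which is 0.430 of the wild-type level. Gars, the glycine enzyme of both compartments (Entrez 353172, chr6:55038001-55079504), had 1284 and 1304 counts in Pax5-/- cells, against 2836 in wild-type cells. Both Pax5-/- samples lay close together, at 195 ± 4.70 CPM (SD, n = 2), and far below the 442 CPM of wild-type cells (log2 fold change -1.18, SE 0.11, adjusted p = 0.00873, edgeR). Mutations of this gene cause an inherited neuropathy in humans.

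Aars, the alanine enzyme (Entrez 234734, chr8:111027778-111055569), had 1198 and 1238 counts in Pax5-/- cells, against 2529 in wild-type cells (log2 fold change -1.11, SE 0.11, adjusted p = 0.0101, edgeR). Its annotated span overlaps Ddx19b, which had 257 and 271 counts in Pax5-/- cells, against 136 in wild-type cells, and so differed the other way, and 1326 bases of its longest transcript are shared with Exosc6 (167 and 234 counts against 223). Tars, the threonine enzyme (Entrez 110960, chr15:11383663-11399658), had 830 and 901 counts in Pax5-/- cells, against 1742 in wild-type cells (log2 fold change -1.06, SE 0.12, adjusted p = 0.0132, edgeR). For both genes the Pax5-/- samples differed little from each other and lay below the single wild-type sample, as for 42.9% of all genes tested. Yars, the tyrosine enzyme (Entrez 107271, chr4:129189734-129219240), had 632 and 670 counts in Pax5-/- cells, against 1273 in wild-type cells (log2 fold change -1.02, SE 0.13, adjusted p = 0.0164, edgeR). Nars, the asparagine enzyme (Entrez 70223, chr18:64499655-64516515), had 1359 and 1406 counts in Pax5-/- cells, against 2500 in wild-type cells (log2 fold change -0.91, SE 0.11, adjusted p = 0.0151, edgeR).

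The remaining 3 fell by less. Mars1, the methionine enzyme of the multisynthetase complex (Entrez 216443, chr10:127296221-127311786), had 841 and 787 counts in Pax5-/- cells, against 1414 in wild-type cells (log2 fold change -0.85, SE 0.14). Its annotated span overlaps by 71 bases with Ddit3, which encodes the stress factor CHOP and had 28 and 32 counts in Pax5-/- cells, against 97 in wild-type cells; the part of this overlap in the Mars1 counts was not tested. Sars, the serine enzyme, which also charges the selenocysteine transfer RNA (Entrez 20226, chr3:108424864-108445259), had 1186 and 1233 counts in Pax5-/- cells, against 2010 in wild-type cells (log2 fold change -0.78, SE 0.12). Iars, the isoleucine enzyme of the complex (Entrez 105148, chr13:49682130-49734267), had 1790 and 1823 counts in Pax5-/- cells, against 2901 in wild-type cells (log2 fold change -0.73, SE 0.11, adjusted p = 0.0221, edgeR). In all, 8 of the 37 members had a match of at least 90% identity over 200 bases to a transcript of another gene. These include genes that overlap the member in place, such as Rab3gap2 at Iars2 and Sgpp2 at Farsb, and so are not all separate copies. Iars is uncertain, because a processed pseudogene, Gm4849, matches 1656 bases of its transcript at 96.0% identity. Over the 9 called genes the 2 Pax5-/- samples differed by at most 0.20 on the log2 scale, and the largest adjusted p was 0.0295 (edgeR).

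Because 9 cytosolic members fell together, the promoters of the synthetase genes were searched for sequence motifs, in the 250 bases before the RefSeq transcription start (build GRCm38.p6, a patch release of the assembly also called mm10). A promoter was given for 27 of the 37 genes, 13 cytosolic and 14 mitochondrial. The motif of interest was the core of the CCAAT/enhancer-binding protein and ATF response element (CARE), the kind of site through which ATF4 is known to act, written TGATGNAA and read on both strands. It was found for 3 of the 7 called genes with a promoter (Aars, Gars and Tars), 0 of 6 cytosolic genes that were not called and 0 of 14 mitochondrial genes. Among 27025 genes with a promoter, 3.91% held it. The stricter TGATGCAA, which the first motif includes, was found for Aars and Tars and in 0.92% of all genes. The promoters that held a match are shown 5′ to 3′ in lower case with the match in capitals, each ending at the base before the start that RefSeq gives for it. For Aars this start lies inside the annotated span of the gene given above, so the promoter shown is within that span.
Aars, chr8:111033592-111033841, plus strand: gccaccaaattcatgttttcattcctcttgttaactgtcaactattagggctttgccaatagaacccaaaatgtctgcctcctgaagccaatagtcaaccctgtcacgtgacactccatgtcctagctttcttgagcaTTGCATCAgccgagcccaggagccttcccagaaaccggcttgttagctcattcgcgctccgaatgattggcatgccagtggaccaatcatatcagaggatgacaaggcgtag
Gars, chr6:55037751-55038000, plus strand: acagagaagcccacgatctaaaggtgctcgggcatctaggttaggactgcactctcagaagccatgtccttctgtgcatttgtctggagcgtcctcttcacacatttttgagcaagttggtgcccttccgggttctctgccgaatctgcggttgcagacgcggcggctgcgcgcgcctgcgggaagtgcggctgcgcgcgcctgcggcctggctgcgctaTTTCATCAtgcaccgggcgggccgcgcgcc
Tars, chr15:11399659-11399908, minus strand: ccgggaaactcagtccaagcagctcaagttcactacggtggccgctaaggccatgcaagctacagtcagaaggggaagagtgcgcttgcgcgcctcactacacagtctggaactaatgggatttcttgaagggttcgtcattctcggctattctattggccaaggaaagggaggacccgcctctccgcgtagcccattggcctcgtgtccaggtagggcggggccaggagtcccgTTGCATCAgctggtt

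In each of the 3 promoters the capitals are the motif as read from the opposite strand, TTGCATCA in Aars and Tars and TTTCATCA in Gars. They lie 112 to 105 bases before the start in Aars, 30 to 23 in Gars and 15 to 8 in Tars. The E-box CACGTG, the site of Myc and related factors, was found in Aars and Iars among the called genes, in Farsb among cytosolic genes not called, in 0 mitochondrial genes and in 6.86% of all genes. The ETS core CCGGAAGT was found in Mars1 and Farsa and in 3.23% of all genes, and the YY1 motif AAGATGGC in Farsa and in 1.83%. The NRF1 site was found in 0 members and in 0.88% of all genes. A match is a description of these letters, and binding was not measured here.

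Compared per length, as TPM computed from the deposited counts and gene lengths, cytosolic synthetases stood well above mitochondrial ones. The median level of the cytosolic genes was 118 and 121 TPM in Pax5-/- samples 1 and 2 and 165 TPM in the wild type, and that of the mitochondrial genes was 22.1 and 23.9 TPM against 20.2 TPM. In Pax5-/- cells Kars, the lysine enzyme of the complex, ranked first with 330 ± 7.96 TPM (SD, n = 2), followed by Vars, the valine enzyme (294 ± 45.5 TPM), and Qars, the glutamine enzyme (197 ± 6.10 TPM). Kars and Vars did not differ there beyond the spread of Vars, which had 326 and 262 TPM. Gars and Nars ranked 4 and 5 in Pax5-/- cells (169 ± 0.378 and 163 ± 2.50 TPM). In the wild type Vars ranked first with 403 TPM, followed by Gars (367 TPM), Kars (303 TPM) and Nars (292 TPM), and Qars ranked 15 (127 TPM). Cars was the lowest cytosolic gene in Pax5-/- cells, with 36.6 ± 2.65 TPM, and lay below Iars2 there (79.0 ± 0.999 TPM). In the single wild-type library Cars had 81.5 TPM, level with Lars (81.6 TPM) and close to Iars2 (78.5 TPM), so no order is read from these values.

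**Figure D2:**
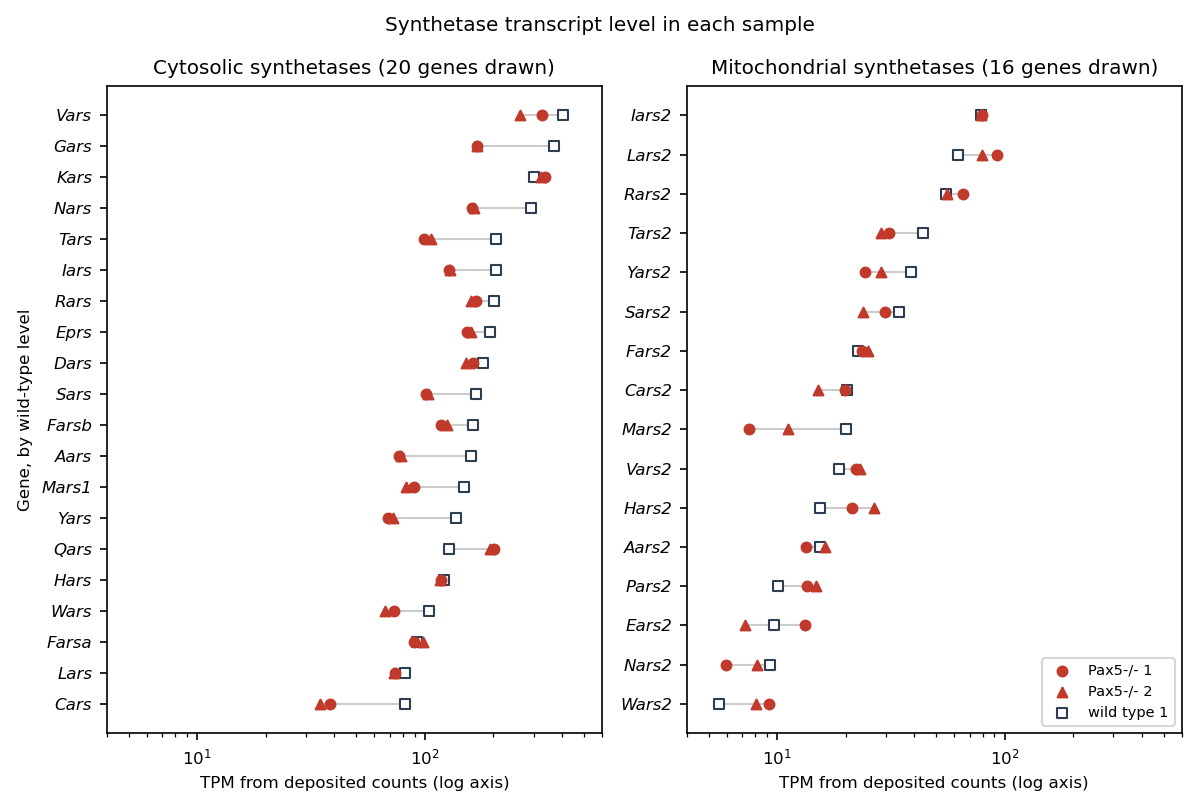
Level of 20 cytosolic and 16 mitochondrial synthetase genes in each sample, as TPM from the deposited counts on a log axis, with filled circles and triangles for Pax5-/- samples 1 and 2 and open squares for the wild type; genes are ordered by wild-type level. Both Pax5-/- samples lie left of the wild type for 17 of the 20 cytosolic genes and for 6 of the 16 mitochondrial genes drawn.

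The direction of cytosolic genes was shared more widely than the calls. Both Pax5-/- samples lay below the wild type in CPM for 18 of 20 cytosolic genes, as for 42.9% of all genes tested, and above it for 2, Kars and Qars. With library size alone as the scaling, 17 lay below. Vars had 676 and 523 CPM in Pax5-/- cells, against 856 CPM in wild-type cells (log2 fold change -0.51, SE 0.18, adjusted p = 0.131, edgeR), and its Pax5-/- samples differed more from each other than those of any other cytosolic synthetase. Wars, the tryptophan enzyme and a known interferon-induced gene, had 103 and 91.3 CPM in Pax5-/- cells, against 150.5 CPM in wild-type cells (log2 fold change -0.63, SE 0.15, adjusted p = 0.0643, edgeR). Eif2ak2, an interferon-induced kinase, had 1923 and 527 counts in Pax5-/- cells, against 1026 in wild-type cells, and its part in the Wars values was not tested. Wars passed the threshold with robust dispersion estimation.

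Within the multisynthetase complex 2 of the 8 enzymes fell (Mars1 and Iars), with a median log2 fold change of -0.30. Of the 12 enzymes outside it 7 fell, with a median of -0.84. The share called lower among all genes tested was 8.55%, and the difference between these subsets was not tested. All 12 outside the complex had both Pax5-/- samples below the wild type, as had 42.9% of all genes tested. The complex members not called were Rars (arginine), Eprs (glutamate and proline), Dars (aspartate), Lars (leucine), Kars and Qars. Rars and Eprs were each at -0.36, with SEs of 0.13 and 0.10, Dars was at -0.25 and Lars at -0.21. Kars was at 0.06, with a 95% interval from -0.26 to 0.38, while Gars, which like Kars serves both compartments, fell. The 3 scaffold genes, Aimp1, Aimp2 and Eef1e1, were not called, at -0.46, -0.45 and -0.41.

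Qars stood on the other side. It had 1744 and 1690 counts in Pax5-/- cells, against 1119 in wild-type cells, or 258 ± 14.8 CPM (SD, n = 2) against 174 CPM. Both Pax5-/- samples lay above the wild type, but the gene missed the threshold (log2 fold change 0.57, SE 0.13, adjusted p = 0.0565, edgeR), which it passed with RLE scaling and with robust dispersion estimation. Of the subunits of the phenylalanine enzyme, the beta subunit gene Farsb had 123 and 126 CPM in Pax5-/- cells, against 175 CPM in wild-type cells (log2 fold change -0.48, adjusted p = 0.0777, edgeR). The alpha subunit gene Farsa had 80.5 and 84.7 CPM against 85.2 CPM (log2 fold change -0.05, 95% interval -0.45 to 0.36). Hars, the histidine enzyme, was at -0.12 with an interval from -0.50 to 0.26.

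By catalytic class, which divides the synthetases by the fold of their active site, the genes that fell were of both kinds. They were 4 of 9 cytosolic class I genes (Cars, Iars, Mars1 and Yars) and 5 of 10 class II genes (Aars, Gars, Nars, Sars and Tars), with medians of -0.63 in each. Eprs, which holds an enzyme of each class in 1 protein, was not counted here. The share called lower among all genes tested was 8.55%, and the classes were not compared by a test.

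The mitochondrial synthetases went both ways. Both Pax5-/- samples lay below the wild type in CPM for 8 of 17 genes, above it for 6 and on opposite sides for 3, against 42.9% below and 42.3% above among all genes tested. With library size alone as the scaling, 6 lay below and 6 above, and in TPM 6 lay below and 8 above. Mars2, the methionine enzyme, had 69 and 103 counts in Pax5-/- cells, against 187 in wild-type cells, or 12.9 ± 3.16 CPM (SD, n = 2) against 29.1 CPM. Its log2 fold change of -1.18 was as large as that of Gars, but its SE was 0.27 and it was not called (adjusted p = 0.0579, edgeR). It passed the threshold in 4 of the 8 alternative analyses, those with RLE scaling, with either other filter and with robust dispersion estimation. Yars2, the tyrosine enzyme, had 19.0 and 21.4 CPM in Pax5-/- cells, against 30.8 CPM in wild-type cells (log2 fold change -0.61, SE 0.18, adjusted p = 0.0971, edgeR). Tars2, the threonine enzyme, had 67.7 and 59.9 CPM against 97.2 CPM (log2 fold change -0.61, SE 0.16, adjusted p = 0.0736, edgeR). Smaller differences without a call were those of the enzymes of asparagine (Nars2, -0.47), serine (Sars2, -0.42), cysteine (Cars2, -0.27), alanine (Aars2, -0.12), phenylalanine (Fars2, 0.04) and valine (Vars2, 0.20).

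At the other end were Wars2, Hars2, Pars2 and Lars2, the enzymes of tryptophan, histidine, proline and leucine. Wars2 had 19.7 and 16.7 CPM in Pax5-/- cells, against 12.3 CPM in wild-type cells (log2 fold change 0.57, SE 0.24, adjusted p = 0.176, edgeR). Hars2 had 31.9 and 38.4 CPM in Pax5-/- cells, against 23.8 CPM in wild-type cells (log2 fold change 0.56, SE 0.20, adjusted p = 0.128, edgeR). In each of them both Pax5-/- samples lay above the wild type without a call. Pars2 was at 0.43 and Lars2 at 0.40. Ears2 and Rars2 (arginine, at 0.07) were among the 3 genes whose Pax5-/- samples lay to either side of the wild type. Ears2, the glutamate enzyme, was the least precise, with 78 and 43 counts in Pax5-/- cells, against 58 in wild-type cells and a 95% interval of the log2 fold change from -1.28 to 1.31. Iars2, the isoleucine enzyme, was among the most precise, with 898 and 893 counts in Pax5-/- cells, against 898 in wild-type cells and an interval from -0.43 to 0.32, although 2034 bases of its longest transcript are shared with Rab3gap2 (386 and 507 counts in Pax5-/- cells, against 532 in wild-type cells).

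Depth differed between the compartments and sets how small a change could be called. Wild-type counts ran from 58 to 898, median 187, in mitochondrial genes, against 547 to 5497, median 1433, in cytosolic genes. The SE of the log2 fold change had a median of 0.20 in mitochondrial and 0.13 in cytosolic genes, and the 2 Pax5-/- samples differed by a median of 0.27 and 0.07 on the log2 scale. Falls of the size of Iars or Sars would therefore be harder to call in most mitochondrial genes. Among the 5 mitochondrial genes with 300 or more wild-type counts, which had SEs of 0.14 to 0.20, the median log2 fold change was 0.07.

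A comparison within each amino acid sets both compartments side by side in the same libraries. For 14 amino acids with 1 gene in each compartment, the cytosolic log2 fold change lay below the mitochondrial one in 13, with a median difference of -0.53. The level ratio of the cytosolic to the mitochondrial gene was lower in both Pax5-/- samples than in the wild type for the same 13. For alanine, Aars stood at 5.74 and 4.84 times the TPM of Aars2 in Pax5-/- and at 10.4 times in the wild type. For tryptophan, Wars stood at 7.98 and 8.30 times the TPM of Wars2 in Pax5-/- and at 18.6 times in the wild type. Leucine was the pair whose order changed: Lars had 0.804 and 0.926 times the TPM of Lars2 in Pax5-/- and 1.31 times in the wild type. Methionine was the exception, with 11.9 and 7.43 times in Pax5-/- and 7.35 times in the wild type. Genes of 1 library are not replicates of a condition, so the difference between compartments is given as a description without a test.

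**Figure D3:**
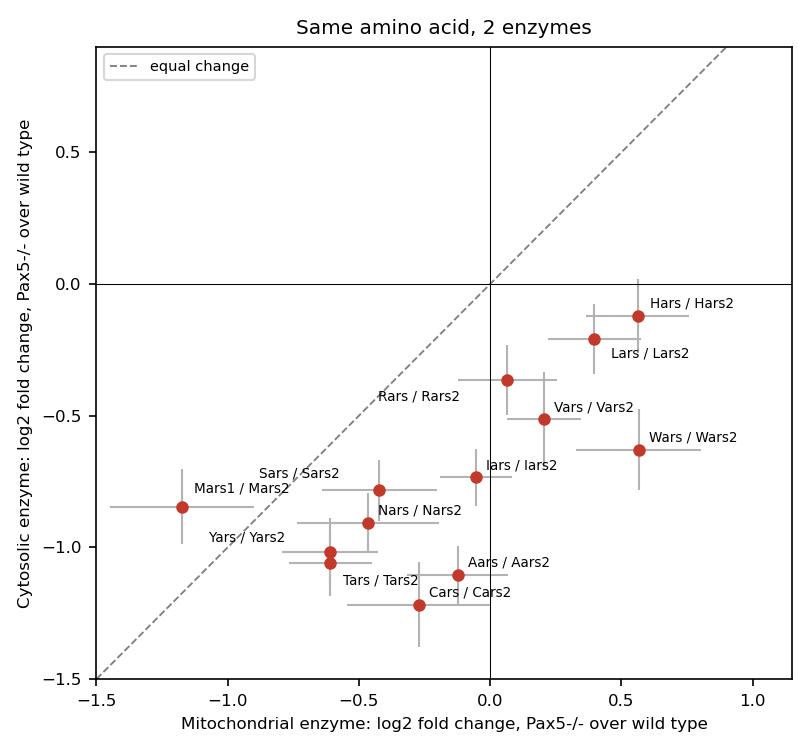
Log2 fold change (Pax5-/- over wild type) of the cytosolic enzyme (y axis) against that of the mitochondrial enzyme (x axis) for 13 of the amino acids with 1 gene in each compartment, with SE bars from the edgeR fit and a dashed line of equal change. The points of 12 amino acids lie below the line, and Mars1 with Mars2 lies above it.

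Hars and Hars2 are a pair of neighbours, head to head on chromosome 18, whose annotated spans overlap by 4 bases. Hars had 114 and 109 CPM in Pax5-/- cells, against 122 CPM in wild-type cells, and Hars2 had 31.9 and 38.4 CPM against 23.8 CPM. For Hars both Pax5-/- samples thus lay below the wild type, for Hars2 above it, and neither gene was called.

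Summed over genes, the cytosolic synthetases took 4071 and 3780.1 CPM in the 2 Pax5-/- samples, against 5773 CPM in wild-type cells, so that the Pax5-/- mean was 0.680 of the wild type. The mitochondrial synthetases took 770.0 and 704 CPM in Pax5-/- cells, against 746 CPM in wild-type cells, a ratio of 0.988. Per length, the cytosolic sum was 5.41 and 5.57 times the mitochondrial sum in Pax5-/- and 7.62 times in the wild type. In the cytosolic sum both Pax5-/- samples were thus below the wild type, and they were on either side of it in the mitochondrial sum.

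The genes that supply amino acids, and those of the response to amino acid shortage, were also lower in part. Of 20 tested genes of amino acid synthesis, 12 fell, 1 rose and 7 were not called, with a median log2 fold change of -0.89. Among all genes tested, 8.55% fell and 9.53% rose. Bcat1, which transfers the amino group of branched-chain amino acids, had 5.24 and 5.72 CPM in Pax5-/- cells, against 311 CPM in wild-type cells (log2 fold change -5.82, SE 0.16). Asns, asparagine synthetase and a known ATF4 target, had 16.7 and 12.6 CPM in Pax5-/- cells, against 197 CPM in wild-type cells (log2 fold change -3.75, SE 0.21). Its product is the amino acid that Nars uses. Cth, which makes cysteine from cystathionine, had 2 and 2 counts in Pax5-/- cells, against 49 in wild-type cells (log2 fold change -4.58, SE 0.52), and Gpt2, a mitochondrial alanine aminotransferase, was at -2.46 (SE 0.30). The member that rose was Asl, argininosuccinate lyase, at 1.36.

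Of 19 tested genes of the GCN2 and ATF4 response, 7 fell, 1 rose and 11 were not called, with a median of -0.75. The shares of all genes tested were 8.55% lower and 9.53% higher. Atf4 had 470 and 541 counts in Pax5-/- cells, against 1581 in wild-type cells (log2 fold change -1.70, SE 0.14, adjusted p = 0.00692, edgeR). Chac1, which degrades glutathione, was all but absent without Pax5, with 2 and 0 counts in Pax5-/- cells, against 81 in wild-type cells. Relative to library totals scaled with TMM, its wild-type level was 83.9 times the Pax5-/- level (95% interval of the counting error 22.5 to 705). Trib3, a pseudokinase induced by ATF4, was at -2.31 (SE 0.24), Eif2ak3, the endoplasmic reticulum kinase PERK, at -2.20 (SE 0.22), and Eif4ebp1, an inhibitor of cap-dependent translation, at -2.10 (SE 0.20). The member that rose was Impact, known as an inhibitor of GCN2, at 1.29. Eif2ak4, which encodes GCN2, was not called, at -0.38 (SE 0.16).

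Of 17 tested amino acid transporter genes, 7 fell, 2 rose and 8 were not called, with a median of -0.38. Over all genes tested, 8.55% were called lower and 9.53% higher. Slc1a5, a carrier of glutamine and other neutral amino acids, had 511 and 514 counts in Pax5-/- cells, against 4013 in wild-type cells (log2 fold change -3.02, SE 0.11). Both chains of the large neutral amino acid carrier fell, Slc7a5 at -1.59 (SE 0.14) and Slc3a2 at -0.97 (SE 0.12). Slc6a9, a glycine carrier, was at -3.53 (SE 0.45), and Slc36a4 had no counts in Pax5-/- cells, against 37 in wild-type cells, at least 25.6-fold lower, with 3 counts over the group as the floor. Slc16a10, a carrier of aromatic amino acids, rose, with 471 and 531 counts in Pax5-/- cells, against 18 in wild-type cells (log2 fold change 4.74, SE 0.21). The other gene that rose was Slc36a1, at 1.29, a call lost with library size alone, DESeq2 and limma-voom.

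**Figure D4:**
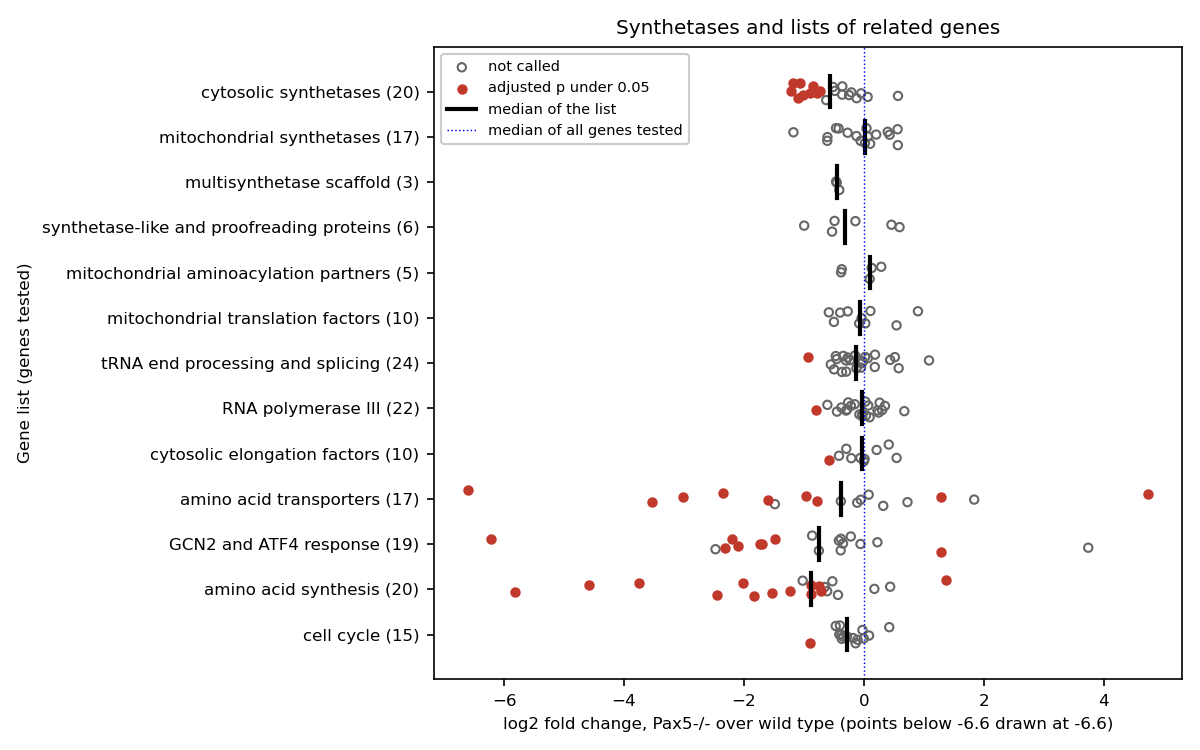
Log2 fold change (Pax5-/- over wild type, x axis) of the tested genes of each list, 1 point per gene, filled where adjusted p was under 0.05, with a black bar at the list median and a dotted line at the median of all genes tested (0.01). The lists of amino acid synthesis (median -0.89), of the GCN2 and ATF4 response (-0.75) and of the cytosolic synthetases (-0.57) have the lowest medians of the lists drawn, which leave out the cell type markers.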

How the data were processed

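The authors' deposited values are gene counts, whole numbers without normalization, made with featureCounts against mm10, per the submitters' processing notes; the aligner, the gene annotation and the use of strand were not given in the sources used here, so reads of overlapping genes cannot be separated. Samples were grouped by the genotype in their titles. The table of the series held the same count as each sample's own file in all 27179 genes. Symbols and coordinates came from RefSeq genes of GRCm38.p6 by Entrez number (25275 matched, 93.0%).

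The fit used edgeR 4.0.16 (R 4.3.3): filterByExpr (minimum count 10), TMM scaling, glmQLFit and glmQLFTest, Benjamini-Hochberg adjustment over 11783 genes and a threshold of 0.05. Fold changes, on the log2 scale, set Pax5-/- over wild type. Their SE was taken as the absolute log2 fold change divided by the root of the F statistic, and 95% intervals use the moderated degrees of freedom and are not adjusted for multiple tests. The prior degrees of freedom were 3.15 and the common biological coefficient of variation 0.203. TPM were computed over all genes from the deposited counts and the gene lengths of the file. Alternatives were RLE scaling, library size alone, no filter, a filter of 1 CPM in 2 samples, DESeq2 1.42.0, limma-voom (limma 3.58.1), robust estimation, an assumed biological coefficient of variation of 0.4 and leaving out each Pax5-/- sample. The fit was tested on simulated data. Member transcripts of GENCODE M21 were searched with blastn against all transcripts (at least 90% identity over 200 bases). Where a gene had 0 counts, up to 3 counts remain possible, or 0.463 and 0.440 CPM in the Pax5-/- libraries and 0.467 CPM in the wild-type library; such floors and counting intervals cover counting error only.

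The design text calls the Pax5-/- samples independent and does not say whether they came from separate animals, so p-values measure only the spread between these samples, which may be technical. The members, the gene lists and the motifs were chosen with earlier results of these data known. Every called synthetase is described with its values, as are the 4 with the highest level and those not called with a log2 fold change over 0.5 in size; of each list, up to 4 called genes with a mean of at least 1 CPM by size of change, or the 2 with the smallest p. Any further gene in the text was picked with its values in view. Values of 1 mitochondrial member, which the counts over members include, and of 1 marker gene are not reported here.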

Additional observations from a re-analysis of the deposited data

How the results depend on the processing

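The 9 synthetases called lower were the same 9 genes with RLE scaling, library size alone, no filter, the filter of 1 CPM in 2 samples, DESeq2, limma-voom and robust estimation, where their adjusted p ran up to 0.0359. With an assumed biological coefficient of variation of 0.4, 0 synthetases were called in either compartment, against 565 genes lower and 518 higher over the whole table, and of the amino acid transporters, the GCN2 and ATF4 response and amino acid synthesis 4, 4 and 5 genes were still called lower and 1, 0 and 0 higher; the cause was not tested. Mars2 added 1 mitochondrial gene called lower with RLE scaling, no filter, the filter of 1 CPM in 2 samples and robust estimation. Wars added 1 cytosolic gene called lower with robust estimation. Qars added 1 cytosolic gene, and so 1 synthetase, called higher with RLE scaling and robust estimation. Without 1 Pax5-/- sample in turn, which leaves no test, the cytosolic median log2 difference ran from -0.72 to -0.52 and the mitochondrial one from -0.086 to 0.030. With limma-voom Ears2 turned to -0.061 and Eif2ak2 to -0.086. Slc36a1 lost its call with library size alone, DESeq2 and limma-voom, which left 1 transporter called higher. No paired analysis was possible because the labels name no pairs and the wild type is a single library. The single wild-type library limits every comparison, and the lower counts of mitochondrial genes limit their calls.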

Other observations

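Genes that make and use transfer RNA outside the synthetases had few calls, against 8.55% called lower among all genes tested, and nothing is read from their counts. Of 24 tested genes of transfer RNA end processing and splicing, 1 fell and 0 rose (median log2 fold change -0.14). It was Thg1l, a guanylyltransferase of histidine transfer RNA, with 132 and 154 counts in Pax5-/- cells, against 263 in wild-type cells (log2 fold change -0.93, SE 0.17), a call lost with DESeq2. Of 22 genes of RNA polymerase III, which transcribes transfer RNA genes, 1 fell (Crcp, at -0.79, a call lost with library size alone, DESeq2 and limma-voom) and 0 rose (median -0.03). Of 10 cytosolic elongation and termination factors, 1 fell and 0 rose (median -0.03): Etf1, the release factor eRF1, had 336 and 332 CPM in Pax5-/- cells, against 501 CPM in wild-type cells (log2 fold change -0.59, SE 0.10). With the assumed biological coefficient of variation of 0.4, Thg1l, Crcp and Etf1 were not called.

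On the mitochondrial side, 0 of 10 translation factors and 0 of 5 partners of aminoacylation were called (edgeR; medians -0.06 and 0.10). Gfm1, an elongation factor, had 78.6 and 78.2 CPM in Pax5-/- cells, against 118 CPM in wild-type cells (log2 fold change -0.58, SE 0.14), and passed the threshold with robust estimation. Guf1, a further factor, was at -0.50 (SE 0.14). Qrsl1, a subunit of the enzyme that turns glutamate into glutamine on its transfer RNA, was at -0.38 (SE 0.20), and Mtfmt, which formylates the initiator methionine, was at 0.29 (SE 0.19). Of 6 synthetase-like and proofreading genes 0 were called. Ptrh2, a peptidyl-tRNA hydrolase, had 525 and 484 counts in Pax5-/- cells, against 323 in wild-type cells (log2 fold change 0.59, SE 0.17, adjusted p = 0.0879, edgeR). Prorsd1 had 77 and 66 counts in Pax5-/- cells, against 138 in wild-type cells (adjusted p = 0.0617, edgeR) and passed the threshold with RLE scaling, no filter and robust estimation.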
